A study of Mus musculus with 2 samples.

Results

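The genes described here are 10 transcription factors of the mouse pluripotency network: Pou5f1, Nanog, Esrrb, Klf2, Klf4, Klf5, Tfcp2l1, Zfp42, Prdm14 and Sall4. They were taken by symbol from the deposited expression values of 24354 genes, and all 10 were found. The values come from differentiating ESCs (embryonic stem cells), with 1 library of control cells (Diff–CONT) and 1 library of inducible Ino80 knockout cells (Diff–iKO). Ino80 is the ATPase of a chromatin remodelling complex, and the comparison asks how its loss alters gene expression while ESCs differentiate. By the study's account, both lines were derived from blastocysts with floxed Ino80 alleles, and ROSA26-CreER, a tamoxifen-activated Cre recombinase, was carried by the knockout line only. The sample labels give the genotypes as WT and Ino80 knockout. Both lines were taken to the primed state in serum, formed EBs (embryoid bodies) that were attached on day 4, and then spent 7 days in serum medium with BMP4 and 0.5 µM 4-OHTM, the tamoxifen metabolite that activates CreER. The control cells therefore received 4-OHTM without CreER, so effects of CreER itself and of Ino80 deletion cannot be told apart between these lines. A difference between 2 ESC lines or 2 cultures cannot be told apart from them either.

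ESC pluripotency is held by a network of transcription factors that bind one another's regulatory regions. Pou5f1 (OCT4), working with SOX2, and Sall4 are expressed in both naive and primed pluripotent cells. Esrrb, Klf2, Klf4, Klf5, Tfcp2l1, Zfp42 and Prdm14 belong to the naive state of the early epiblast, and Nanog is strongest there. When ESCs leave pluripotency, the naive factors are normally silenced first and Pou5f1 later.

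The unit is FPKM, which scales sequenced fragments by transcript length and library size. Levels of genes and libraries are therefore on a common scale, within limits. The FPKM sums still differed, with 440100 for Diff–CONT and 469634 for Diff–iKO. Comparisons between genes also rest on transcript lengths from an annotation that is not given. About 27510931 fragments on genes lay behind the Diff–CONT values and 21431206 behind the Diff–iKO values, as recovered from the steps of the low values. Of the low values used for this, 87.0% and 87.4% were whole multiples of the step within 0.2 of a fragment, where evenly spread values would give 40%. Ino80 itself had 8.90 FPKM for Diff–CONT and 10.3 FPKM for the library labelled Diff–iKO, giving a log2 ratio of 0.21 (95% counting interval 0.11 to 0.31). The whole-gene level of the target was therefore no lower under the knockout label, and every direction below is that of the library labelled Diff–iKO. FPKM per gene does not resolve a deleted exon. With 1 library per condition there is no replicate check and no test of the conditions. The intervals are exact and cover counting error only, not the variation between cultures.

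Of the 10 factors, 9 were higher in the library labelled Diff–iKO by a cut-off of FC ≥ 2 with FPKM ≥ 2 in at least 1 library, and 0 were lower. Across the 12376 genes at that FPKM minimum, 6.73% were higher and 8.39% were lower. The factors had a median log2 ratio of 2.10 (4.29-fold), whereas the median over all these genes was 0.00 to the second decimal. The 9 higher factors ranged from 2.17-fold for Klf5 to 5.93-fold for Esrrb, and Sall4 was nearly equal in both libraries. The counting interval lay wholly above the 2-fold line for 8 factors, and that of Klf5 just included it. In bulk RNA, more cells that kept the network and more RNA of these genes per cell cannot be told apart.

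**Figure D1:**
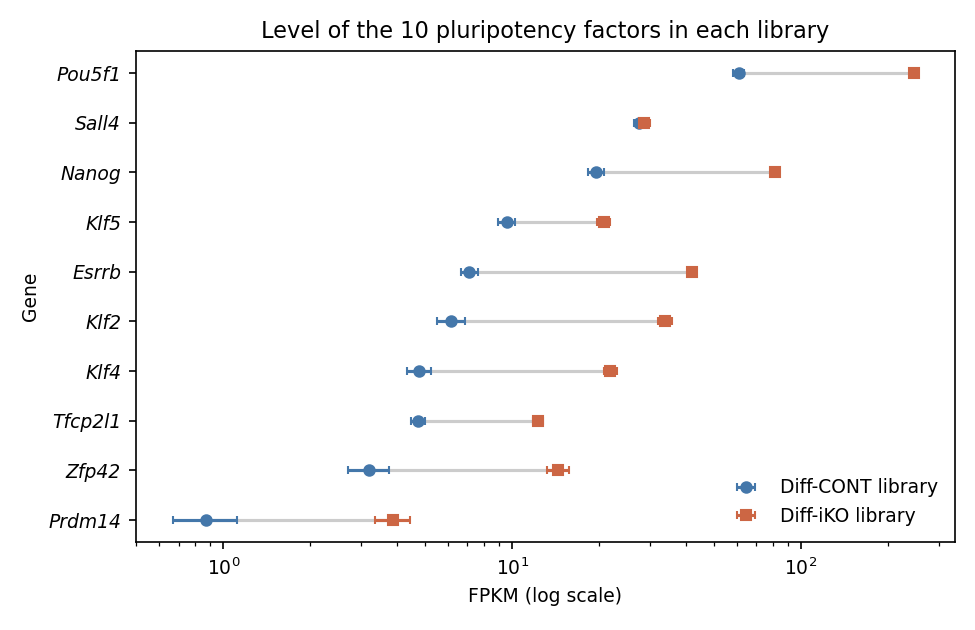
FPKM of each factor (log axis) in the Diff–CONT library (circles) and the library labelled Diff–iKO (squares), with bars for the exact 95% Poisson counting interval and 1 library per condition. The squares lie well to the right of the circles for 9 factors, while the marks of Sall4 overlap at 27.5 and 28.6 FPKM.

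Pou5f1, the POU homeodomain factor without which no pluripotent epiblast forms, had 60.8 FPKM for Diff–CONT and 247 FPKM for the library labelled Diff–iKO. It was the highest of the 10 factors in both libraries, and its log2 ratio was 2.02 (interval 1.95 to 2.10). Among all 24354 genes its level ranked 1185th in the first library and 248th in the second. Nanog, the homeodomain factor that stabilises self-renewal, had 19.5 FPKM and 81.2 FPKM, a log2 ratio of 2.06 (1.96 to 2.16). The level of Pou5f1 was 3.11 times that of Nanog in the Diff–CONT library and 3.04 times in the other, so this pair kept nearly the same proportion while both genes were about 4-fold higher. Pou5f1 lies on the plus strand of chromosome 17 at 35506018 to 35510772 and Nanog on the plus strand of chromosome 6 at 122707489 to 122714633 (GRCm38, the mm10 assembly, GENCODE vM21). The RefSeq promoter sequences of these genes, 250 bases up to an annotated start, are shown because OCT4 and SOX2 bind side by side at composite elements in genes of the network. Capitals mark a match to such an element, written TTTGCATNACAATG and searched on both strands.
Nanog, chr6:122707239-122707488, plus strand, GRCm38.p6: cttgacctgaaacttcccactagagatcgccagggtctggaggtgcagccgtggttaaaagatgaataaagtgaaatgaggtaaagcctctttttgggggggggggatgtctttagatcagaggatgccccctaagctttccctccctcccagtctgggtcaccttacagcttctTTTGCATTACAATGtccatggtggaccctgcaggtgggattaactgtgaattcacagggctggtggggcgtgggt
Pou5f1, chr17:35505782-35506031, plus strand, GRCm38.p6: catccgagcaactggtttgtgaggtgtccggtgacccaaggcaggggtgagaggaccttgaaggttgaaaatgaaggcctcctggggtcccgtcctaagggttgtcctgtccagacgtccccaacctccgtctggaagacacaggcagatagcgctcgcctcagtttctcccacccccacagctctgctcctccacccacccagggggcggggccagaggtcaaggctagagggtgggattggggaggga
The Nanog match lies 75 to 62 bases before the start. Of 32817 windows of this length before annotated mouse starts, 2 hold these letters (0.00609%), and both are overlapping windows of Nanog. The motif was chosen after this window had been read, so the count is a description. The window of Pou5f1 has no match to it, which says only that these letters are not in these 250 bases.

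Sall4, a zinc finger factor of the spalt family that is kept in both pluripotent states and in some early progenitors, stood apart from the other 9. Its level was 27.5 FPKM for Diff–CONT and 28.6 FPKM for the library labelled Diff–iKO, giving a log2 ratio of 0.05 (interval -0.04 to 0.15), which turned to -0.04 when both libraries were scaled to the same FPKM sum. It was the second highest factor in the Diff–CONT library, behind Pou5f1 and above Nanog. In the other library it was the fifth, below Nanog, Esrrb and Klf2. The Pou5f1 level was 2.21 times the Sall4 level for Diff–CONT and 8.64 times for the library labelled Diff–iKO. For Nanog the ratio to Sall4 went from 0.708 to 2.84. The paralogs of Sall4 differed among themselves. Sall1 had 19.5 and 21.5 FPKM (log2 0.14), and Sall2 had 25.2 and 11.2 FPKM (log2 -1.17), lower by the cut-off. Sall4 lies on the minus strand of chromosome 2 at 168748332 to 168767943.

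Esrrb, an orphan nuclear receptor that is repressed by Tcf7l1 and released when GSK3 is inhibited, had the largest ratio of the 10. It had 7.10 FPKM for Diff–CONT and 42.0 FPKM for the library labelled Diff–iKO, giving a log2 ratio of 2.57 (2.46 to 2.68) that ranked 136th of the 12376 genes. Esrrb was the fifth highest factor in the Diff–CONT library, where its counting interval overlapped that of Klf2, and the third in the other library. Its paralog Esrra, a receptor of energy metabolism, had 8.55 and 13.3 FPKM (log2 0.64), short of the cut-off. Esrrb lies on the plus strand of chromosome 12 at 86361117 to 86521628.

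Klf2, Klf4 and Klf5 are zinc finger factors of the Krüppel-like family that bind GC-rich and CACCC sites and can partly replace one another in ESCs. Klf2 had 6.15 FPKM for Diff–CONT and 33.7 FPKM for the library labelled Diff–iKO (log2 2.45, interval 2.27 to 2.64). Klf4, a target of LIF and STAT3 signalling, had 4.77 and 21.9 FPKM (4.59-fold, log2 interval 2.04 to 2.36). Klf5 had 9.57 and 20.8 FPKM, a smaller log2 ratio of 1.12 whose interval (1.00 to 1.24) did not overlap those of Klf2 and Klf4. The order within the trio differed as a consequence. In the Diff–CONT library Klf5 was the highest and Klf4 was at 0.498 times its level, whereas in the other library Klf2 was the highest and Klf4 and Klf5 overlapped in their counting intervals. Summed over the 3 genes, FPKM was 20.5 and 76.4, a 3.73-fold difference. Klf2 lies on chromosome 8 at 72319033 to 72321656 (plus strand), Klf4 on chromosome 4 at 55527143 to 55532466 (minus strand) and Klf5 on chromosome 14 at 99298691 to 99315036 (plus strand).

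Of 23 other Klf and Sp genes, 17 reached the FPKM minimum, with 2 higher and 2 lower by the cut-off, near the shares of 6.73% and 8.39% over all genes, and a median log2 ratio of 0.06. Klf9, a hormone-responsive repressor, had 15.1 and 41.1 FPKM, and Klf8 had 2.39 and 5.56 FPKM. Klf15, known for its role in muscle and liver metabolism, was lower with 3.44 and 1.59 FPKM. Sp5, a target of Wnt signalling, was lower with 2.32 and 0.723 FPKM. The ubiquitous Sp1, which binds the same kind of GC-rich site, had 25.5 and 36.7 FPKM (log2 0.53) and did not reach the cut-off. Among the 20 family genes at the minimum, Klf2 and Klf4 had the largest ratios, and Klf5 ranked below Klf9 and Klf8, with a counting interval that overlapped that of Klf8.

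**Figure D2:**
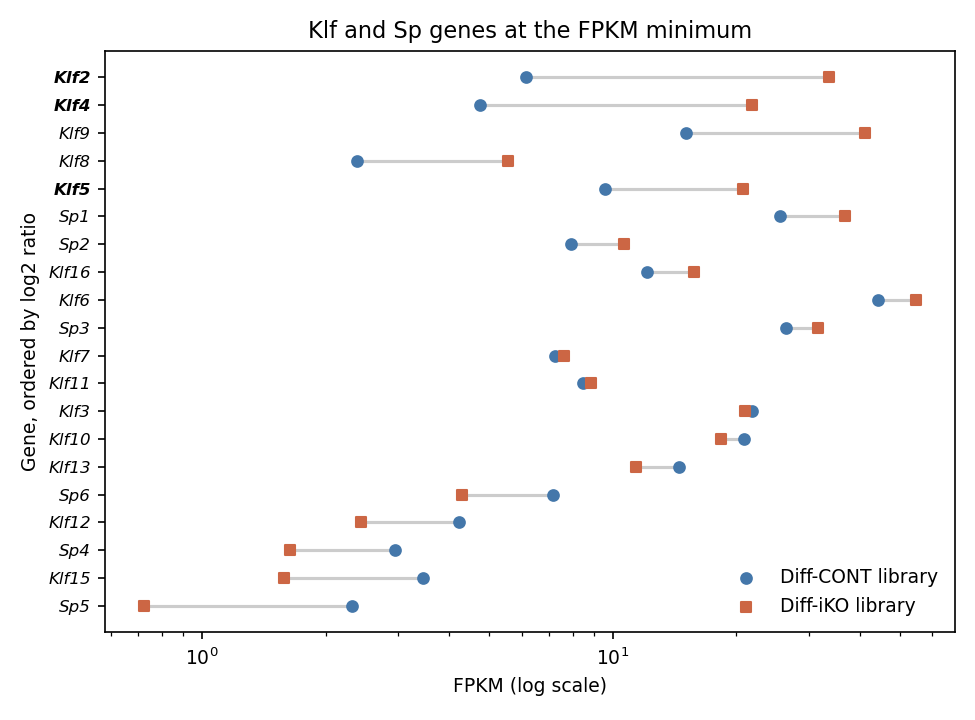
FPKM (log axis) of the 20 Klf and Sp genes at the FPKM minimum, ordered by log2 ratio, in the Diff–CONT library (circles) and the library labelled Diff–iKO (squares), 1 library each and no error bar drawn. Klf2 and Klf4 (bold) have the widest rightward gaps, Klf5 (bold) comes after Klf9 and Klf8, and Sp5 has the widest leftward gap.

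Tfcp2l1, a CP2 family factor and STAT3 target that sustains naive self-renewal, had 4.72 FPKM for Diff–CONT and 12.3 FPKM for the library labelled Diff–iKO (log2 1.38, interval 1.28 to 1.48). With Klf5 it formed the lower end of the factors past the cut-off. Its level could not be separated from that of Klf4 in the Diff–CONT library, but was below it in the other. Of its 5 relatives in the CP2 and grainyhead family, 0 passed the cut-off, with log2 ratios from -0.41 to 0.89. Zfp42 (REX1), a zinc finger gene related to Yy1 and a standard reporter of the naive state, had 3.20 and 14.4 FPKM (log2 2.17, 1.91 to 2.45). Yy1, which is expressed in most cells, had 36.2 and 32.4 FPKM (log2 -0.16). Yy2, a further relative, had 3.40 and 6.80 FPKM, just under the 2-fold line at a log2 ratio of 1.00. Tfcp2l1 lies on chromosome 1 at 118627945 to 118685168 (plus strand) and Zfp42 on chromosome 8 at 43295063 to 43306980 (minus strand). Their promoter windows are shown because they are the member windows that matched the motifs listed next.
Tfcp2l1, chr1:118627695-118627944, plus strand, GRCm38.p6: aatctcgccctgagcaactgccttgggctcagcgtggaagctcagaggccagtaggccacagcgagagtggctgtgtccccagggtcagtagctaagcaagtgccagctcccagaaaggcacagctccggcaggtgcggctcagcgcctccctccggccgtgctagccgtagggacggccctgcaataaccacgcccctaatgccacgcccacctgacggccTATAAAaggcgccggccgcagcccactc
Zfp42, chr8:43307010-43307259, minus strand, GRCm38.p6: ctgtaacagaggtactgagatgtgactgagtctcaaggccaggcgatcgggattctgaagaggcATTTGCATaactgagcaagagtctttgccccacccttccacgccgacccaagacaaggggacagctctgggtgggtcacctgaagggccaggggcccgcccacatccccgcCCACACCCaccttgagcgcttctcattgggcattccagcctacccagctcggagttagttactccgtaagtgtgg
In the Tfcp2l1 window the capitals mark a TATA box (TATAAA) 28 to 23 bases before the start. In the Zfp42 window they mark the octamer bound by POU factors (ATGCAAAT, here on the opposite strand) at 186 to 179 bases and a CACCC box (CCACACCC), a site type of Klf factors, at 75 to 68 bases before the start. The last bases of the opposite-strand octamer are those that open the composite element above, so the searches for both are not independent.

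RefSeq windows of 7 factors were matched by symbol, 10 windows in all. Klf5, Prdm14 and Sall4 were not among them. Windows on chr18 were left out of all these counts. On both strands, 1.60% of the 32817 windows hold the octamer, 3.19% the CACCC box and 12.4% the TATA box. An estrogen-related receptor element (TCAAGGTCA, 0.387% of all windows), a STAT element (TTCCNGGAA, 0.914%) and a YY1 element (GCCATNTTG, 1.33%) had 0 matches in the 10 windows. The windows of the factors had a median GC content of 59.6%, ranging from 45.6% to 74%, against a median of 52.4% over all windows. Their median ratio of observed to expected CpG pairs was 0.379, against 0.373 over all windows. Each match is a match of letters and no measure of binding.

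Prdm14, a PR domain factor that represses FGF signalling and DNA methylation genes in naive ESCs and also acts in germ cell specification, was the lowest factor in both libraries. It had 0.872 FPKM for Diff–CONT and 3.85 FPKM for the library labelled Diff–iKO (log2 2.14, interval 1.73 to 2.58). The interval is the widest of the 10, since about 62 and 205 fragments lay behind these values. Of 14 other Prdm genes, 7 reached the FPKM minimum, 0 were higher and 1 was lower. The lower gene, Prdm6, had 8.81 and 0.554 FPKM (log2 -3.99). Prdm14 lies on the minus strand of chromosome 1 at 13113457 to 13127163.

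**Figure D3:**
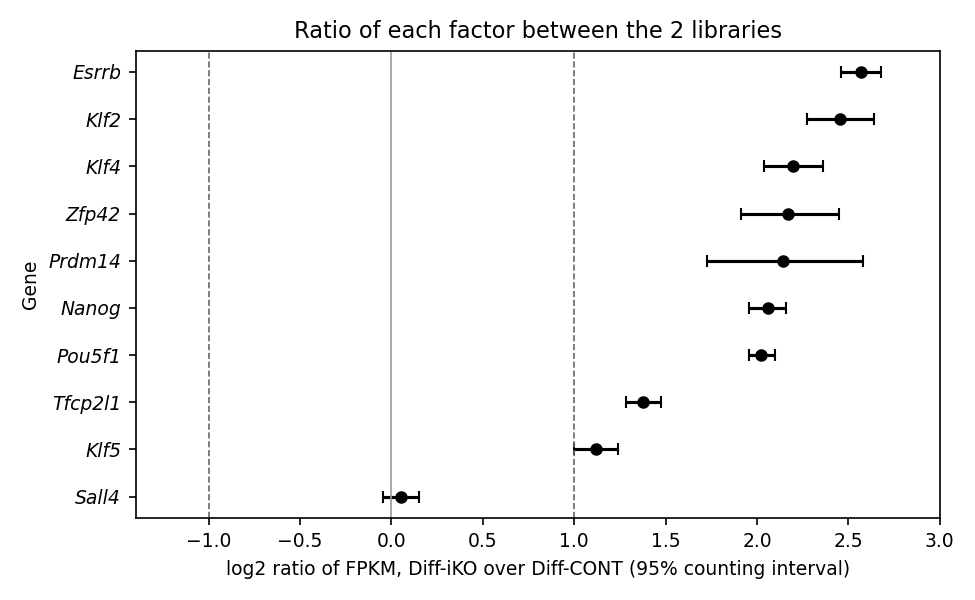
Log2 ratio of FPKM, library labelled Diff–iKO over Diff–CONT, for each factor (points) with its exact 95% counting interval (bars); the dashed lines mark the 2-fold cut-off and the solid line equality. Of the 10 factors, 7 lie near or above 2, Tfcp2l1 and Klf5 lie between 1.12 and 1.38, and Sall4 is at 0.05.

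Together the 10 factors made up 0.0328% of all FPKM for Diff–CONT and 0.108% for the library labelled Diff–iKO. Their sum was 144 FPKM and 506 FPKM, and without Sall4 it was 117 and 477 FPKM, a 4.09-fold difference. In order of level, the Diff–CONT library had Pou5f1, Sall4, Nanog, Klf5, Esrrb, Klf2, Klf4, Tfcp2l1, Zfp42 and Prdm14. The neighbours Esrrb and Klf2 and the neighbours Klf4 and Tfcp2l1 overlapped in their counting intervals. In the library labelled Diff–iKO the order was Pou5f1, Nanog, Esrrb, Klf2, Sall4, Klf4, Klf5, Zfp42, Tfcp2l1 and Prdm14, with an overlap between Klf4 and Klf5. Among the 12376 genes, 7 of the 10 ratios ranked within the top 300.

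**Figure D4:**
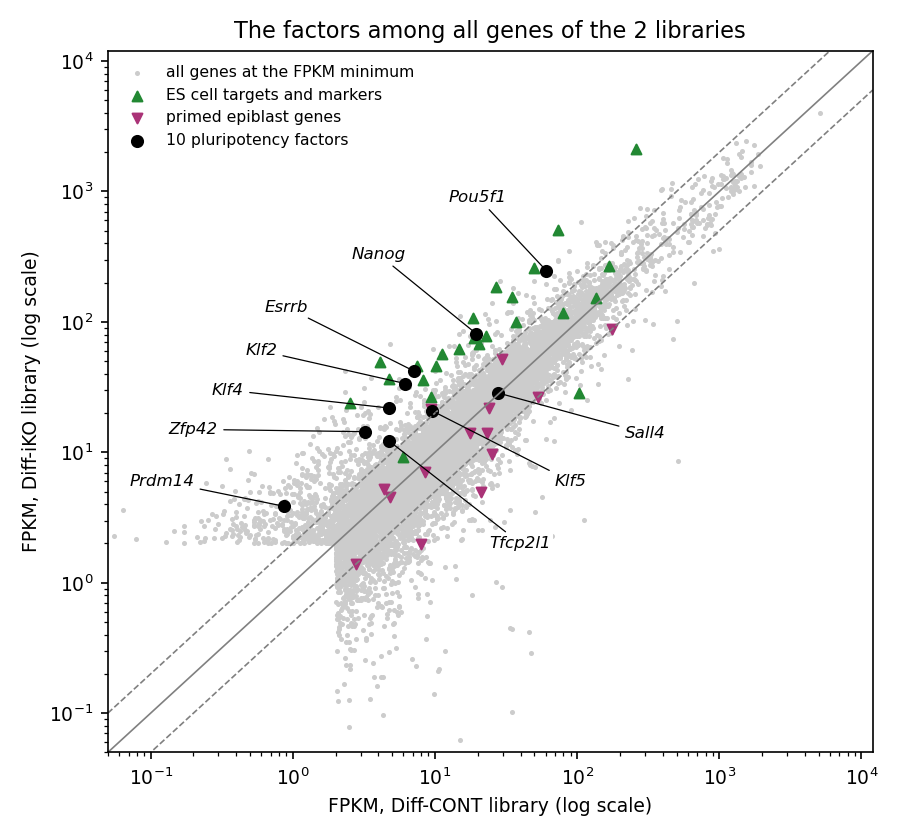
FPKM in the library labelled Diff–iKO against FPKM in the Diff–CONT library (both axes log) for 12349 genes at the FPKM minimum (grey), with the 10 factors (black), ES cell targets and markers (triangles pointing up) and primed epiblast genes (triangles pointing down); 27 genes under 0.05 FPKM in 1 library fall outside the axes. The solid line is equality and the dashed lines are 2-fold, and 9 factors lie above the upper dashed line with Sall4 on the solid line.

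Factors that act with these 10 were less uniform. Of 19 other network factors, all at the FPKM minimum, 7 were higher and 0 lower, with a median log2 ratio of 0.60. Sox2, the partner of OCT4, had 42.7 FPKM and 68.2 FPKM, a log2 ratio of 0.68 (0.60 to 0.76) that did not reach the cut-off, against 2.02 for Pou5f1. The orphan receptor genes Nr0b1 and Nr5a2, whose products act on Pou5f1, had larger ratios, with 2.32 and 28.9 FPKM (log2 3.64) for Nr0b1 and 1.17 and 6.87 FPKM (log2 2.56) for Nr5a2. Gbx2, a homeobox target of STAT3, had 0.996 and 4.14 FPKM (log2 2.05). Utf1, a chromatin-bound factor of ESCs, had 27.0 and 101 FPKM (log2 1.91). Nacc1, a NANOG partner that is widely expressed, had 46.4 and 44.7 FPKM (log2 -0.06).

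LIF signalling through its receptor and STAT3 drives Klf4, Tfcp2l1 and Gbx2 in ESCs. Of 11 genes of this pathway, all at the FPKM minimum, 1 was higher and 0 were lower, and the median log2 ratio was 0.06. The higher gene was Lif, the ligand itself, with 3.85 and 9.69 FPKM (log2 1.33). Il6st, the shared receptor chain gp130, had 51.0 and 47.1 FPKM. Ptpn11, a phosphatase downstream of the receptor, had 39.3 and 41.7 FPKM. Pim1, a STAT3 target, had 36.8 and 49.9 FPKM (log2 0.44). Bcl3, a further gene of this list, had 3.98 and 6.65 FPKM (log2 0.74). The STAT3 targets Socs3 and Cish went the other way. Socs3 had 19.6 and 13.1 FPKM (log2 -0.58), and Cish had 6.39 and 4.29 FPKM (log2 -0.58). Pim1, Bcl3, Socs3 and Cish did not reach the cut-off. Stat3 itself had 31.0 and 31.4 FPKM (log2 0.02). These are RNA levels, and the phosphorylation of STAT3 was not measured here.

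Known targets of the network and markers of ESCs had a median close to that of the factors. Of 24 such genes, all at the FPKM minimum, 19 were higher and 1 was lower, with a median log2 ratio of 2.15. Dppa5a, an RNA-binding marker of pluripotent cells, had 258 FPKM and 2115 FPKM (log2 3.04), the highest level in this list. Gdf3, a TGF-β family ligand, had 4.12 and 49.7 FPKM (log2 3.59), and Dppa2 had 2.52 and 24.0 FPKM (log2 3.25). Spp1, a secreted phosphoprotein, had 73.6 and 508 FPKM (log2 2.79). Cdh1, the epithelial cadherin, had 166 and 268 FPKM (log2 0.69) and did not reach the cut-off. Lin28a, an RNA-binding protein gene that is higher in primed than in naive cells, was the lower gene, with 103.5 and 28.6 FPKM (log2 -1.85).

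Genes of the primed epiblast, the later pluripotent state, had a median log2 ratio of -0.52. Of 14 genes, all at the FPKM minimum, 3 were lower and 1 was higher. Fgf5, the standard marker of the primed state, had 7.96 and 1.97 FPKM (log2 -2.01). Fgf15 had 21.1 and 5.00 FPKM (log2 -2.08), and Sox11 had 25.1 and 9.75 FPKM (log2 -1.37); both are also expressed in neural progenitors. Etv4, a transcriptional effector of FGF signalling, was higher with 9.39 and 21.3 FPKM (log2 1.18), and the related Etv5 had 29.5 and 52.0 FPKM (log2 0.82). Dnmt3b, the DNA methyltransferase gene that PRDM14 represses in ESCs, had 53.0 and 26.6 FPKM, a fold of 0.502 that was just short of the cut-off. Cldn6, a tight junction gene, had 174.5 and 87.6 FPKM (log2 -0.99).

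Some of the factors are also expressed outside ESCs, so markers of such cells were set beside them. Of 11 primordial germ cell genes, which share Pou5f1, Nanog and Prdm14 expression, 7 reached the FPKM minimum and 4 were higher, with sums of 53.4 and 129 FPKM. The higher genes were Tfap2c, Ddx4, Itgb3 and Dppa3, which the list of ES cell targets and markers also holds. Without Dppa3 the sums were 43.2 and 82.8 FPKM. Of the defining markers, Prdm1 had 2.999 and 3.12 FPKM, Nanos3 0.552 and 0.734 FPKM, Dazl 0.269 and 1.89 FPKM, and Ddx4 1.48 and 4.42 FPKM. The part of germ cells in the ratios of the factors was not tested.

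Trophoblast progenitors express Esrrb, Klf5 and Sall4. Of 11 genes, 9 reached the FPKM minimum, 3 were higher and 4 lower, and the sum was 160 and 98.1 FPKM. The defining markers were Cdx2 with 4.00 and 0.705 FPKM, Eomes with 5.25 and 1.48 FPKM, and Elf5 with 0.0687 and 0.299 FPKM. The higher genes were Tpbpa with 1.07 and 5.63 FPKM, Tfap2c, which the germ cell list also holds, with 6.68 and 24.1 FPKM, and Ascl2 with 1.00 and 2.03 FPKM. Hand1 and Bmp4 carried the direction of the sum, since the other 9 genes summed to 45.4 and 54.4 FPKM. Endothelium expresses Klf2 and Klf4. Of 11 endothelial genes, 10 reached the minimum, 2 were higher and 6 lower, and the sum was 65.6 and 77.1 FPKM. Without Pecam1 the sum of the other 10 genes was 49.4 and 23.2 FPKM, the opposite direction. The higher genes were Pecam1, which ESCs also express, with 16.2 and 53.9 FPKM, and Robo4, a receptor of endothelial cells, with 1.05 and 2.36 FPKM, whereas the defining genes Cdh5 (10.3 and 4.34 FPKM), Kdr (12.2 and 4.37 FPKM) and Erg (2.03 and 0.149 FPKM) had the lower values under the Diff–iKO label.

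Gut-like epithelium expresses Klf4 and Klf5. Of 10 genes, 6 reached the minimum, 0 were higher and 3 lower, and the sum was 945 and 1305 FPKM, most of it from the keratins Krt8 (407 and 575 FPKM) and Krt18 (522 and 721 FPKM). The other 8 genes summed to 15.8 and 8.82 FPKM, the opposite direction. Its defining genes were Vil1 with 5.55 and 0.791 FPKM, Cdh17 with 0.0508 and 0.0817 FPKM, and Muc2 with 0.193 and 0.123 FPKM. Visceral endoderm, an extraembryonic tissue of EBs, was the list with the largest difference. All 11 genes were lower, with a median log2 ratio of -5.19 and sums of 343 and 14.8 FPKM. Afp had 45.9 and 0.422 FPKM, Ttr 66.7 and 2.28 FPKM, and Hnf4a 4.33 and 0.0963 FPKM. Of the listed genes of these 5 cell types, 0 were at 0 in either library. Markers of these other cell types thus also differed between the libraries, and their part in the ratios of the factors was not tested.

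**Figure D5:**
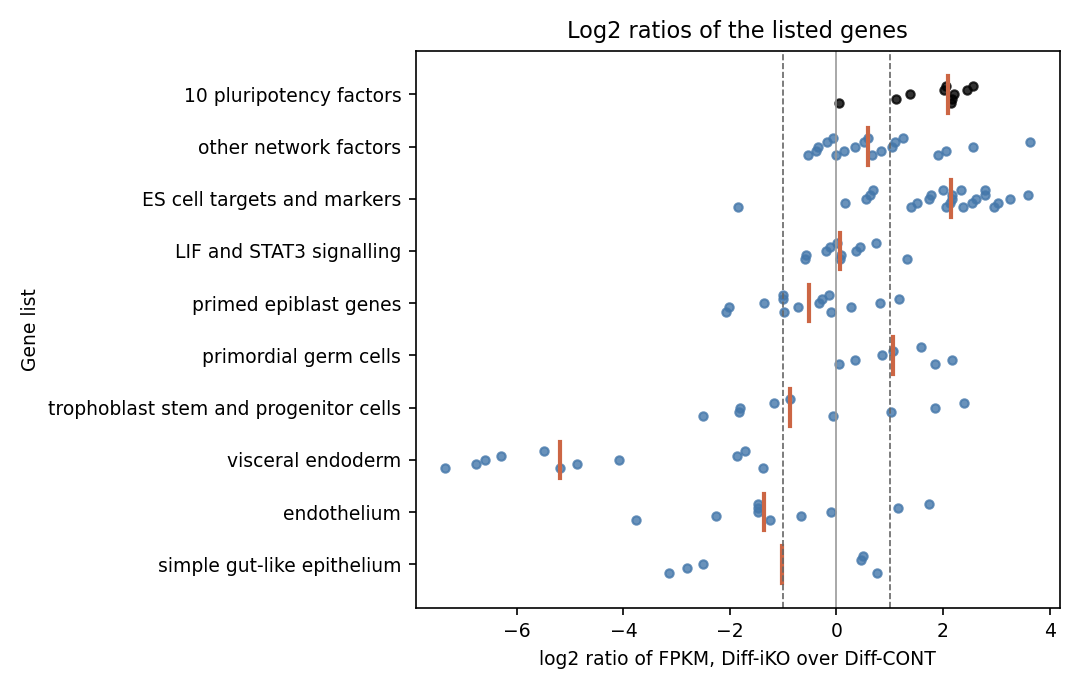
Log2 ratio of FPKM, library labelled Diff–iKO over Diff–CONT, for each gene at the FPKM minimum (points) in the 10 factors and 9 other lists, with the list median (vertical bar), the 2-fold lines (dashed) and equality (solid). The median is near 2 for the factors and for the ES cell targets and markers, near 0 for LIF and STAT3 signalling, and -5.19 for visceral endoderm.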

How the data were processed

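Poly(A) RNA of 2 samples, 1 per group, was sequenced as paired-end reads from stranded libraries. The authors deposited FPKM values per gene. The submitters' processing notes name STAR 2.7.9a, Cufflinks 2.2.1, Cuffnorm and mm10. The gene annotation and the strand setting are not given in the sources used here. Genes that overlap on opposite strands (at Pou5f1, Tfcp2l1 and Sall4) and genes with pseudogene copies (Nanog, Zfp42) are therefore uncertain. The FPKM columns were assigned by name, and 0 other columns of values were present.

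The log2 ratio was taken without a pseudocount, and the cut-off was FC ≥ 2 with FPKM ≥ 2. The study's methods give these minimums but neither a pseudocount nor how many libraries must reach the FPKM minimum, which was taken here as at least 1. Fragments were recovered from FPKM steps over 5800 genes whose single RefSeq transcript has 1000 nucleotides or more. Counts per gene use the shortest transcript. Ratio intervals are exact Clopper-Pearson and level intervals exact Poisson, at 95%. The steps were checked on simulated data. The scripts ran in Python 3.11.15 (scipy 1.17.1, pandas 2.3.3, numpy 2.4.6; plots with matplotlib 3.10.9).

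The factors and the gene lists were chosen with earlier results of these data known. Of each list the text names the 3 genes with the highest mean FPKM, all genes past the cut-off where these were 6 or fewer (otherwise the 3 largest folds in each direction), defining markers and family paralogs, and some of these are not printed. Stat3, Socs3, Cish, Bcl3 and the neighbouring genes were named after their values were seen. Coordinates are from GENCODE vM21 and promoter windows from RefSeq, both GRCm38. Alternatives were other FPKM filters, pseudocounts, folds and scalings.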

Additional observations from a re-analysis of the deposited data

How the results depend on the processing

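No paired analysis was possible because each condition had 1 library and no replicate numbers, and for the same reason no replicate could be left out. With a pseudocount of 1 the median log2 ratio of the factors was 1.93 instead of 2.10. That setting took the ratio of Prdm14 from 2.14 to 1.37, below its counting interval. The ratios of Esrrb, Klf4, Tfcp2l1 and Zfp42 also fell below their intervals. With a pseudocount of 0.1, 807 genes were higher and 1002 lower over all genes, with the same counts of 9 and 0 among the factors. Prdm14 was no longer counted when FPKM ≥ 5 or FPKM ≥ 2 in both libraries was required, and Klf5 and Tfcp2l1 did not reach FC ≥ 4. Over all genes, FPKM ≥ 5 left 671 lower genes, and 21 lower genes in the lists. FPKM ≥ 2 in both libraries left 488 higher and 569 lower genes, and 12 lower in the lists. No FPKM filter gave 2794 higher and 2761 lower genes. FC ≥ 1.5 gave 1846 and 2177. FC ≥ 4 gave 278 and 237, and 18 higher and 16 lower in the lists. Scaling to the same FPKM sum shifted every log2 ratio by -0.09 and gave 702 higher and 1226 lower genes, so that 36.4% of the calls were higher against 44.5% as reported, with the same 9 factors higher. The other scalings shifted ratios by -0.01 and 0.01. The lowest precision is at Prdm14 and Zfp42, which have the fewest fragments.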

Other observations

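Genes beside the 10 factors were examined within 100 kb of each locus. Of 20 measured neighbours, 14 reached the FPKM minimum, 2 were higher in the library labelled Diff–iKO and 1 was lower. Over all genes at that minimum, 6.73% were higher and 8.39% lower. Both higher neighbours lie in the Nanog cluster on chromosome 6 and are also among the ES cell targets and markers above. Dppa3, a maternal and germline factor, had 10.2 and 46.1 FPKM (log2 2.17) at a gap of 77.2 kb from Nanog, and Gdf3 had 4.12 and 49.7 FPKM (log2 3.59) at a gap of 97.4 kb. Slc2a3, a glucose transporter gene 13.2 kb from Nanog, had 932.6 and 482.7 FPKM (log2 -0.95), short of the cut-off. The lower gene was H2-Q7, a class I histocompatibility gene beside Pou5f1, with 2.79 and 0.369 FPKM (log2 -2.92). It belongs to a family of similar genes, between which reads can be split. Tcf19, also beside Pou5f1, had 8.51 and 7.79 FPKM (log2 -0.13). Atp9a, beside Sall4, had 25.9 and 50.7 FPKM (log2 0.97), short of the cut-off, where Sall4 had a log2 ratio of 0.05.

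Among the POU genes other than Pou5f1, 6 of 14 reached the FPKM minimum. Pou2f2, a factor best known from B cells, was higher with 1.13 and 4.47 FPKM (log2 1.99), and Pou3f4, a neural factor, was lower with 2.63 and 0.840 FPKM (log2 -1.65). Pou3f1, which marks the primed epiblast, had 4.86 and 4.52 FPKM (log2 -0.11).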
